A study of Mus musculus with 8 samples.

Results

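The complement genes C1qa, C1qb, C1qc, C1ra, C3, C3ar1, Cfb, Cfp and Serping1 were followed in regenerating mouse muscle. They were chosen by name, and 8 of the 9 had an array row that names that gene alone, out of 19752 genes with such a row and 15007 genes tested. C3, the central protein of the cascade, had no such row here and is not analysed. Each of the 8 had a single row of this kind, and all 8 passed the filter on dim rows. The study measured the tibialis anterior, taken whole from male C57BL/6 mice on day 8 after a freezing injury made with a metal probe held on the muscle for 8 seconds. Age is 10 weeks in the labels, and 2 months in the series text. There were 4 samples labelled ST2 FL/Foxp3-Cre (ST2 flox below) and 4 labelled ST2 WT/Foxp3-Cre (ST2 WT below), with 1 array each. Every mouse therefore carried Foxp3-Cre and was injured, and the groups differ in whether the gene of ST2, the interleukin-33 receptor, is floxed. Foxp3-Cre acts in regulatory T cells, which make up little of the tissue, and no row used here names the floxed gene alone. Nothing in the labels ties a sample to an animal of its own, so the spread behind each p-value is that between these samples and may be technical.

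Complement is a cascade of plasma and tissue proteins that tags dead cells and microbes for removal. The classical pathway starts when C1q, a bundle of chains from C1qa, C1qb and C1qc, binds its target and activates the proteases C1r and C1s. Serping1 encodes C1 inhibitor, which blocks those proteases. The alternative pathway uses factor B (Cfb), which supplies the protease of the C3 convertase, and properdin (Cfp), which stabilises it. C3ar1 encodes the receptor for the C3a fragment. C1q is made chiefly by macrophages, and the C3a receptor and properdin largely by myeloid cells, whereas fibroblasts and other stromal cells are known sources of C1r and C1 inhibitor. In injured muscle, macrophages clear dead fibres while fibro-adipogenic progenitors, a stromal cell type, support regeneration.

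The 3 C1q genes lie side by side on mouse chromosome 4 with 0 other genes between them in the RefSeq table. Upstream sequences are shown for C1qb and C1qc, as chains of one protein complex ascribed to macrophages, and for C1ra, as a component ascribed to stroma. Each window is the 250 bases before the RefSeq transcript start in build GRCm38.p6, written on the strand of the gene. C1qb lies on the minus strand (chr4:136886201-136886450), C1qc on the minus strand (chr4:136892915-136893164) and C1ra on the plus strand (chr6:124512371-124512620). Capitals mark GAGGAA, the core letters bound by the macrophage factor PU.1, or its complement on the other strand.
C1qb: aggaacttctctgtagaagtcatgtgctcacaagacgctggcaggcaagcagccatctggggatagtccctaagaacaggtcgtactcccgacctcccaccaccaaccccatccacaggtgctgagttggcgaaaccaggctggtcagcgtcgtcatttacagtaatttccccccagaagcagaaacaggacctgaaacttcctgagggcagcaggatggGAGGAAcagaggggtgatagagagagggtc
C1qc: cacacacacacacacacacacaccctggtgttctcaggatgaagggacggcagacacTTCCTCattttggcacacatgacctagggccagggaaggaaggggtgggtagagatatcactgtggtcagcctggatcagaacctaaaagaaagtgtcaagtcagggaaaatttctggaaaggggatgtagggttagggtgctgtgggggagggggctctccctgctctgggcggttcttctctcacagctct
C1ra: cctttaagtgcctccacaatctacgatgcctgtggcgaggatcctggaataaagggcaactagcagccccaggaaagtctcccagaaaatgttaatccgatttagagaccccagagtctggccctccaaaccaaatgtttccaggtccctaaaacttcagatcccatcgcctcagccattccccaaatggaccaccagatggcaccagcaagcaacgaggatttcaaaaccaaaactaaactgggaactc
In the C1qb window the match covered bases -30 to -25 from the start, and in the C1qc window it lay on the opposite strand at bases -193 to -188. The C1ra window had 0 matches, as had those of C3ar1 and Cfp, which are ascribed largely to myeloid cells. Over both strands, GAGGAA was found in 23.3% of 32851 windows of the same length, and in 2 of the 5 windows of analysed members (C1qb, C1qc, C1ra, C3ar1 and Cfp). The letters TTCNNNGAA, the gapped palindrome bound by STAT factors, were in 0 of these 5 windows and in 7.02% of all windows. The letters GAAANNGAA, of interferon-response type, were in 0 of 5 and in 7.13%. These matches describe letters only. C1qa, Cfb and Serping1 had no window in the table.

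All 8 complement transcripts had a higher mean in ST2 flox muscle than in ST2 WT muscle, and none of them passed the test. The differences ran from 0.04 log2 for Serping1 to 0.27 log2 for Cfp, with a median of 0.19, where the median over all 15007 genes was -0.0025. Each gene was spread more widely over the flox arrays than the groups differed. Of all genes tested, limma called 0%, 48.8% had a higher mean in flox, and 3.79% had an unadjusted p under 0.05, against 0 of the 8 members. The groups overlapped for all 8 members, and did not overlap for 1.97% of all genes. Median intensity per array lay between 185 and 189.

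**Figure D1:**
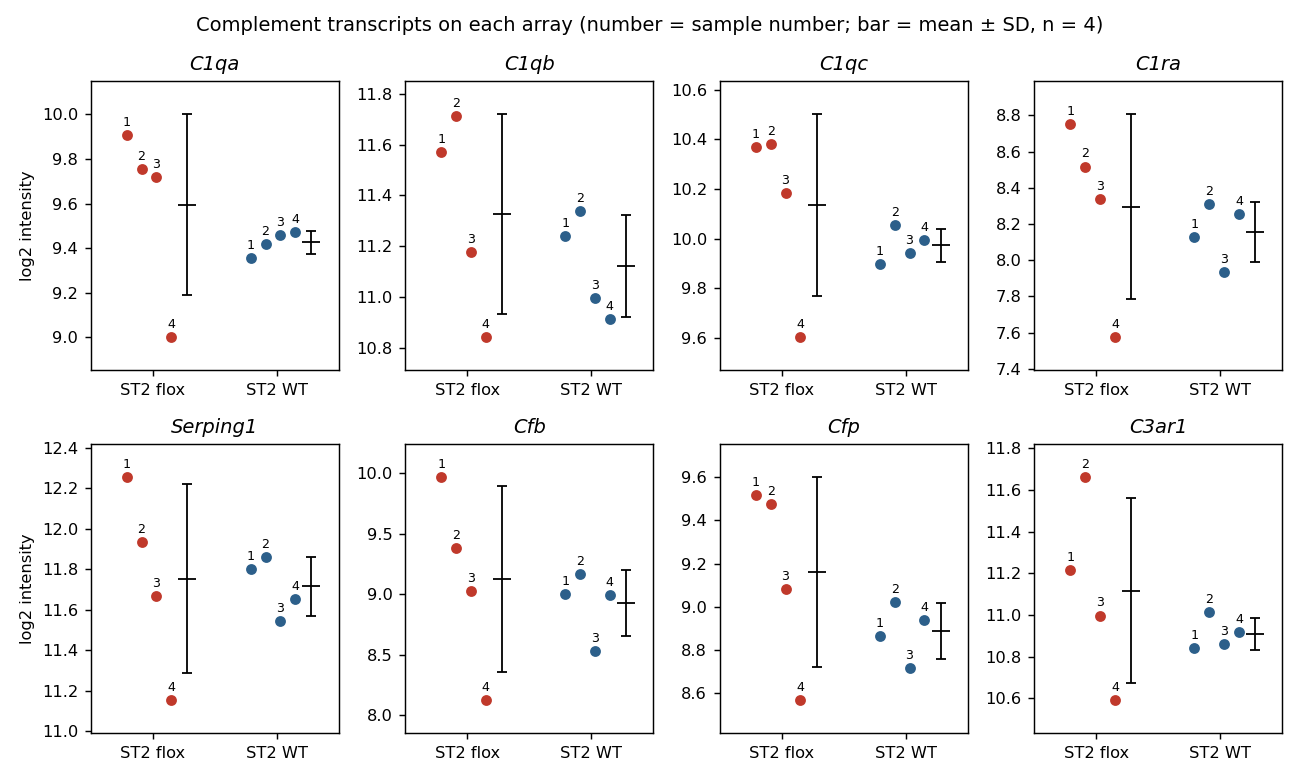
Log2 intensity (vertical axis, a scale of its own for each gene) of the 8 complement transcripts on each array, ST2 flox in red on the left and ST2 WT in blue on the right, with the sample number at each point and a bar for mean ± SD (n = 4). Flox array 4 is the lowest of the 8 arrays in every panel, and flox array 1 or 2 is the highest.

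The C1q chains, which form the recognition part of C1, were above the WT range on 2 or 3 flox arrays and below it on flox array 4. C1qa measured 9.91, 9.75, 9.72 and 9.003 log2 on flox arrays 1 to 4, against 9.36, 9.42, 9.46 and 9.47 on WT arrays 1 to 4. Flox arrays 1 to 3 lay above every WT array and flox array 4 below every one. The mean was 9.60 ± 0.40 in flox and 9.43 ± 0.05 in WT (SD, n = 4 each), a difference of 0.17 log2 (SE 0.16, 95% interval -0.19 to 0.53, limma adjusted p = 0.912).

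C1qb was the least even of the chains among the WT samples. It measured 11.57, 11.71, 11.18 and 10.84 log2 on flox arrays 1 to 4, against 11.24, 11.34, 10.99 and 10.91 on WT arrays 1 to 4. Flox arrays 1 and 2 were above the WT range, flox array 3 inside it and flox array 4 below it. The difference was 0.20 log2 (SE 0.17, 95% interval -0.18 to 0.59, limma adjusted p = 0.912).

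C1qc had 10.37, 10.38, 10.18 and 9.60 log2 on flox arrays 1 to 4, against 9.90, 10.05, 9.94 and 9.995 on WT arrays 1 to 4. As for C1qa, flox arrays 1 to 3 were above the WT range and flox array 4 below it, here with flox array 2 marginally the highest. The difference was 0.16 log2 (SE 0.15, 95% interval -0.17 to 0.49, limma adjusted p = 0.912). The SD over the flox arrays was 7.79 times that over the WT arrays for C1qa, 1.96 times for C1qb and 5.39 times for C1qc. A larger SD in flox was found for all 8 members and for 66.1% of all genes, and the median ratio was 3.31 over the members and 1.38 over all genes.

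C1ra, a protease of the C1 complex, and Serping1, its inhibitor, ran in the same order over the flox arrays, with flox array 1 on top. C1qa, Cfb and Cfp had that order as well. C1ra measured 8.75, 8.52, 8.34 and 7.58 log2 on flox arrays 1 to 4, against 8.13, 8.31, 7.94 and 8.26 on WT arrays 1 to 4. Flox arrays 1 to 3 lay above every WT array, flox array 3 by a narrow margin, and flox array 4 below. The difference was 0.14 log2 (SE 0.21, 95% interval -0.33 to 0.60, limma adjusted p = 0.929). C1rb is a near-identical copy of C1ra, so the signal may be shared. A second row that names C1ra and C1rb together differed by 0.22 (SE 0.31, exact permutation p = 0.543), with 10.13, 9.61, 9.27 and 8.70 on flox arrays 1 to 4, against 9.29, 9.41, 8.99 and 9.15 on WT arrays 1 to 4.

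Serping1 was the member whose groups differed least. It measured 12.25, 11.93, 11.67 and 11.16 log2 on flox arrays 1 to 4, against 11.80, 11.86, 11.54 and 11.65 on WT arrays 1 to 4. Flox arrays 1 and 2 lay above the WT range, flox array 3 inside it and flox array 4 below. The difference was 0.04 log2 (SE 0.19, 95% interval -0.39 to 0.46, limma adjusted p = 0.979). Its sign turned without flox array 1 (-0.13), without flox array 2 (-0.02) or without WT array 3 (-0.02).

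Cfb, the alternative pathway protease, had the widest range of the 8. It measured 9.97, 9.38, 9.03 and 8.13 log2 on flox arrays 1 to 4, against 9.003, 9.17, 8.53 and 8.99 on WT arrays 1 to 4. The highest flox array was 3.58-fold above the lowest, while the WT arrays spanned 1.55-fold. The difference was 0.20 log2 (SE 0.32, 95% interval -0.50 to 0.90, limma adjusted p = 0.931), and -0.079 without flox array 1.

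Cfp, the gene of properdin, had the largest difference between the groups. It measured 9.52, 9.47, 9.08 and 8.57 log2 on flox arrays 1 to 4, against 8.87, 9.02, 8.72 and 8.94 on WT arrays 1 to 4. Flox arrays 1 to 3 lay above every WT array and flox array 4 below. The difference was 0.27 log2, or 1.21-fold (SE 0.18, 95% interval -0.13 to 0.68, limma adjusted p = 0.912).

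C3ar1, the C3a receptor, was highest on flox array 2 and not on flox array 1. It measured 11.21, 11.66, 10.998 and 10.59 log2 on flox arrays 1 to 4, against 10.84, 11.02, 10.86 and 10.92 on WT arrays 1 to 4. Flox array 3 lay inside the WT range. The difference was 0.21 log2 (SE 0.18, 95% interval -0.19 to 0.60, limma adjusted p = 0.912), and 0.03 without flox array 2.

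**Figure D2:**
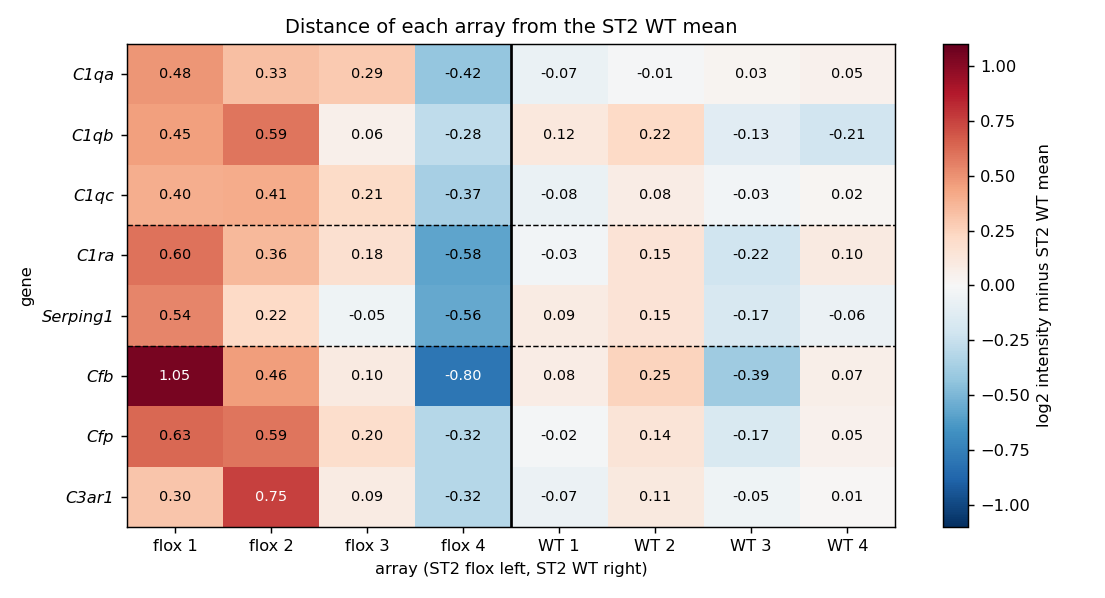
Log2 intensity of each complement transcript (rows) on each array (columns, ST2 flox left of ST2 WT) minus the ST2 WT mean of that gene, printed in each cell and coloured red above and blue below that mean. Dashed lines part the C1q chains, C1ra with Serping1, and the remaining members. Flox arrays 1 and 2 are above 0 for all 8 genes, flox array 4 is below 0 for all 8, and the largest value is 1.05 for Cfb on flox array 1.

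The array pattern was shared by all members. On flox array 4 each of the 8 was at its lowest of all arrays, as were 18.5% of all genes. Flox array 1 held the highest value for 5 members (C1qa, C1ra, Cfb, Cfp and Serping1) and flox array 2 for 3 (C1qb, C1qc and C3ar1), compared with 20.3% and 14.5% of all genes. For all 8, flox arrays 1 and 2 lay above every WT array and flox array 4 below every one, a pattern written down after the values were seen and met by 9.55% of all genes. Over the 8 arrays the 28 pairs of members had Pearson correlations of 0.71 to 0.98 with a median of 0.89. The pairs of C1q chains spanned most of that range, at 0.74 for C1qa with C1qb, 0.85 for C1qb with C1qc and 0.97 for C1qa with C1qc, while C1qa and C1qc had 0.93 and 0.95 with C1ra. These values are given as a description, since the arrays share one experiment and one normalization.

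Because of that order the size of each difference hung on flox array 4. Without it the median difference of the members was 0.37 log2, from 0.24 for Serping1 to 0.53 for Cfb. Then 4 members, C1qa, C1qc, C1ra and Cfp, were higher on every remaining flox array than on any WT array, where 8.63% of all genes were, and 7 members (all but Serping1) had an unadjusted p under 0.05, where 10.6% of all genes were higher with such a p. In limma 0 members passed after adjustment without flox array 4 (smallest adjusted p 0.122, for C1qa), where 0.0133% of all genes did. Flox array 4 was singled out from these same values and was the lowest for all 8 members. Leaving it out therefore had to raise each difference, and these counts describe the arrays only. The shares over all genes are no like yardstick, since flox array 4 was the lowest for 18.5% of them.

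**Figure D3:**
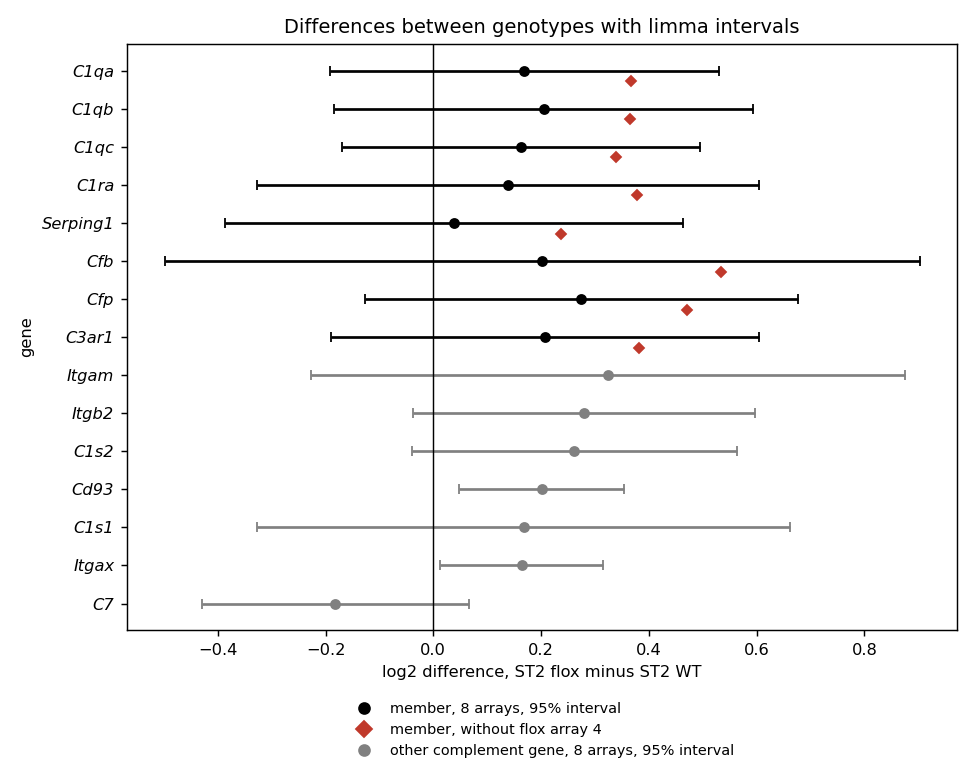
Log2 difference between ST2 flox and ST2 WT (horizontal axis, flox minus WT) for the complement members (black) and other named complement genes (grey), with limma 95% intervals over 8 arrays, and for the members without flox array 4 (red diamonds). All member intervals over 8 arrays include 0. Each red diamond lies to the right of its black point, as it must, since flox array 4 was the lowest for every member.

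To set the C1q chains against the components ascribed to stroma, each gene was centred on its own mean and averaged per array. The C1q mean was 0.35, 0.35, 0.10 and -0.45 on flox arrays 1 to 4, against -0.10, 0.01, -0.13 and -0.14 on WT arrays 1 to 4. The mean of C1ra and Serping1 was 0.52, 0.25, 0.02 and -0.61 on flox arrays 1 to 4, against -0.02, 0.11, -0.24 and -0.03 on WT arrays 1 to 4. Both were above the WT range on flox arrays 1 and 2 and below it on flox array 4, while on flox array 3 only the C1q mean was above it. By gene that split did not hold, as on flox array 3 C1ra was above its WT range and C1qb inside its own.

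The C1q mean minus the mean of C1ra and Serping1 was -0.17, 0.11, 0.07 and 0.17 on flox arrays 1 to 4, against -0.08, -0.10, 0.11 and -0.11 on WT arrays 1 to 4. The groups overlapped, with the lowest value on flox array 1 and a difference of 0.09 log2 (SE 0.09). With Cfb added to C1ra and Serping1 it was 0.05. This score over chosen genes was not tested.

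**Figure D4:**
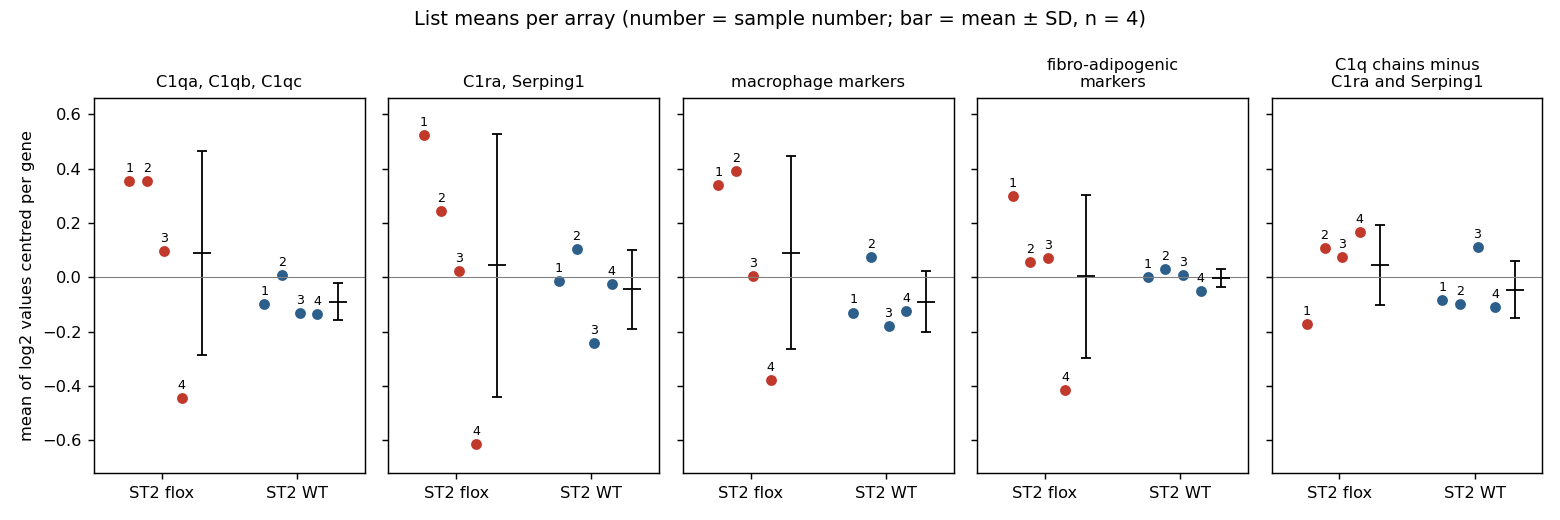
Mean of log2 values centred per gene (vertical axis) on each array for the C1q chains, for C1ra and Serping1, for 20 macrophage markers, for 14 fibro-adipogenic markers and for the C1q mean minus the mean of C1ra and Serping1, ST2 flox left of ST2 WT, with sample numbers and a bar for mean ± SD (n = 4). The first 4 panels share a low flox array 4 at -0.61 to -0.38, and the last panel overlaps between groups.

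Markers of the cell types that make these proteins were also at their lowest mean on flox array 4, and above the WT range on flox array 1. Of 20 macrophage markers, such as the growth factor receptor Csf1r and the lysosomal glycoprotein Cd68, 19 had a higher mean in flox and 0 passed the test. Their mean was 0.34, 0.39, 0.01 and -0.38 on flox arrays 1 to 4, and -0.18 to 0.07 on the WT arrays. Of 14 fibro-adipogenic markers, such as the receptor Pdgfra and the proteoglycan Dcn, 7 were higher and 7 lower. Their mean was 0.30, 0.06, 0.07 and -0.41 on flox arrays 1 to 4, and -0.05 to 0.03 on the WT arrays. In whole muscle, fewer cells of a type and less RNA per cell cannot be told apart.

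Among other sources, 3 of 9 neutrophil markers passed the filter on dim rows (6.35 log2). Csf3r lay at 7.45 to 8.70, S100a9 at 6.69 to 7.65 and Camp at 6.29 to 6.84. Ly6g, which defines these cells, lay below the filter at 5.60 to 5.87. Ngp and Cxcr2, also left out, reached 7.18 and 7.10 on single arrays. Of the 3 tested, 2 were higher on average in flox and 0 passed the test. The mean of these 3 was -0.12 to 0.34 on the flox arrays and -0.16 to 0.03 on the WT arrays. Of 7 hepatocyte markers, 2 passed, Apoa1 at 6.93 to 7.43 and Fgb at 6.23 to 6.61. The liver transcript Ttr lay below the filter at 5.60 to 6.18, and Alb, also left out, spanned 6.01 to 7.11. The hepatocyte mean was -0.19 to 0.18 on the flox arrays and -0.07 to 0.09 on the WT arrays, lowest on flox array 1. Adipocyte markers were at -0.38 to 0.39 on the flox arrays and -0.18 to 0.12 on the WT arrays, with 0 of 4 higher on average. The adipocyte mean was highest on flox array 1, where 4 of 4 markers peaked, and lowest on flox array 2. Of 6 T cell markers, 6 were higher on average, 2 of them with an unadjusted p under 0.05, and 0 passed the test. Their mean differed by 0.26 log2 (SE 0.12), against 0.18 (SE 0.19) for the macrophage mean. The T cell differences ran from 0.06 to 0.85, the highest of all genes tested, with a median of 0.16. The macrophage median was 0.21, so the larger T cell mean rested largely on its top marker. T cell markers were at -0.19 to 0.34 on the flox arrays and -0.21 to -0.08 on the WT arrays, and endothelial markers at -0.04 to 0.09 on the flox arrays and -0.13 to 0.04 on the WT arrays. Markers of the labelled tissue were present, with Ckm, the muscle creatine kinase, at 13.6 to 13.7 log2, and the mature muscle mean differed by -0.0098 (SE 0.04). The part of cell content in the complement values was not tested.

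Each member was correlated with the macrophage and the fibro-adipogenic marker means over the 8 arrays, 16 relations in all. With the macrophage mean, Pearson r ran from 0.87 for C1qa to 0.98 for Cfp. C1ra (r = 0.92, rho = 0.95) and Serping1 (r = 0.88, rho = 0.90) lay within the range of the C1q chains, which was from C1qa (r = 0.87, rho = 0.79) over C1qb (r = 0.95, rho = 0.88) to C1qc (r = 0.96, rho = 0.95). In this order of naming, the exact permutation p of these Pearson values were 0.00144, 0.00280, 0.00484, 4.22e-04 and 5.95e-04, or 0.00384, 0.00524, 0.00703, 0.00225 and 0.00238 after Benjamini-Hochberg adjustment. Those of the rank correlations were 0.00114, 0.00456, 0.0279, 0.00724 and 0.00114, or 0.00365, 0.0122, 0.0319, 0.0129 and 0.00365 after adjustment. Without flox arrays 1 and 2, the farthest from the median, r was 0.93, 0.89, 0.78, 0.83 and 0.91 over 6 arrays. This kept the flox array on which every member was lowest, so these r values may still rest on that array. The members were chosen with results of these data known, so these p-values describe the arrays and are no independent evidence.

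With the fibro-adipogenic mean, r was 0.91 for C1ra (rho = 0.88, exact permutation p = 0.00313 and 0.00724, adjusted 0.00524 and 0.0129). For Serping1 r was 0.93 (rho = 0.76, exact permutation p = 0.00588 and 0.0368, adjusted 0.00784 and 0.0368). The C1q chains differed among themselves. For C1qa r was 0.92 (rho = 0.81, exact permutation p = 0.00102 and 0.0218, adjusted 0.00325 and 0.0268). For C1qc r was 0.87 (rho = 0.86, exact permutation p = 0.00228 and 0.0107, adjusted 0.00522 and 0.0156). For C1qb r was 0.71 (rho = 0.76, exact permutation p = 0.0382 and 0.0368, adjusted 0.0408 and 0.0368). C3ar1 had the lowest r at 0.62 (rho = 0.81, exact permutation p = 0.121 and 0.0218, adjusted 0.121 and 0.0268). Flox arrays 1 and 4 were the farthest from the median here. Without them r was 0.47 for C1ra, 0.37 for Serping1, 0.69 for C1qa, 0.69 for C1qc, 0.66 for C1qb and 0.52 for C3ar1. These relations therefore rest in large part on those arrays, least so for C1qb. The check with the macrophage mean kept flox array 4, the lowest for every member, and the check here left it out. The reduced r values therefore cannot be compared between the marker means, and do not show which relation is firmer.

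With the macrophage mean as a covariate the difference was 3.2e-04 for C1qa, 0.0031 for C1qb, -0.0090 for C1qc, 0.0050 for C3ar1 and 0.06 for Cfp. For the rest it was -0.10 for C1ra, -0.16 for Cfb and -0.18 for Serping1, with a limma adjusted p of 1.00 for each. With the fibro-adipogenic mean as a covariate it was 0.16 for C1qa (SE 0.06) and 0.27 for Cfp (SE 0.10). The limma adjusted p was 0.534 for both. For the other members it ran from 0.03 for Serping1 to 0.20 for C3ar1. The macrophage mean itself differed by 0.18 log2 between the groups and followed the members, so its entry had to lower their differences. The fibro-adipogenic mean differed by 0.0058, so it could hardly move them. These fits therefore do not set one cell type against the other, and the cause was not tested.

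The genes outside the members whose profile over the 8 arrays was most like the mean of the C1q chains were the nuclear export receptor Xpo1 (r = 0.997), Unc93b1, which carries endosomal Toll-like receptors (r = 0.995), the phospholipase Pla2g4a (r = 0.991), the lysosomal sulfatase Arsb (r = 0.991) and the small GTPase Rab7b (r = 0.990). Those most like the mean of C1ra and Serping1 were the glycosyltransferase B3galnt1 (r = 0.993), the mannosidase Man1a (r = 0.990), Csf1r (r = 0.987), Epb41l2 (r = 0.986) and the cytoskeletal adducin Add3 (r = 0.986). The genes of each list also followed the other mean. For the first list that r ran from 0.90 (Pla2g4a) to 0.94 (Xpo1), and for the second from 0.92 (Man1a) to 0.97 (Csf1r). Csf1r, a macrophage marker, measured 10.37, 10.23, 9.95 and 9.40 log2 on flox arrays 1 to 4, against 9.91, 10.02, 9.79 and 9.84 on WT arrays 1 to 4. Cfb, which was not used in the mean of C1ra and Serping1, had r = 0.99 with that mean and 0.91 with the C1q mean. C3ar1 had r = 0.76 with the mean of C1ra and Serping1 and 0.90 with the C1q mean. These likenesses are descriptions over 8 arrays.

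Other complement genes were split in direction. Of 48 other complement genes listed, 43 had a row of their own and 33 were tested, of which 18 had a higher and 15 a lower mean in flox. Their median difference was 0.01 log2, against 0.19 for the members and -0.0025 for all genes, and 0 passed after adjustment. On flox array 4, 10 of the 33 were at their lowest. The split included dim genes. Of the 15 that passed a filter at the 50th percentile, 12 had a higher mean, as did 5757 of all 10031 genes at that filter.

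Of the receptors tested, 7 of 7 were higher on average, where 48.8% of all genes were, and 0 passed the threshold. The smallest difference was 0.015 log2, for C1qbp (SE 0.09). Itgam, Itgb2 and C5ar1 shared a pattern, with flox arrays 1 and 2 above every WT array and flox array 4 below every one. Cd93, a receptor on endothelial and myeloid cells once named for C1q binding, measured 11.09, 11.28, 11.13 and 11.11 log2 on flox arrays 1 to 4, against 10.91, 10.90, 10.90 and 11.10 on WT arrays 1 to 4. It did not follow the members, as flox array 4 stayed level with the other flox arrays and only flox array 1 fell just inside the WT range. Its difference was 0.20 log2 (SE 0.07, unadjusted limma p = 0.0148, exact permutation p = 0.0571, limma adjusted p = 0.912), and 0.16 to 0.25 without each array in turn.

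Itgax, a chain of complement receptor CR4, measured 7.95, 7.92, 8.06 and 8.10 log2 on flox arrays 1 to 4, against 7.71, 7.86, 7.93 and 7.87 on WT arrays 1 to 4. Here flox array 4 was the highest of all, opposite to the members. The difference was 0.16 (SE 0.07, unadjusted limma p = 0.0360, exact permutation p = 0.0571, limma adjusted p = 0.912). Cd93 and Itgax were the 2 of 33 genes with an unadjusted p under 0.05, both higher, where 2.03% of all genes were higher with such a p.

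Itgam, the matching chain of receptor CR3, did follow the members, with 8.80, 8.82, 8.17 and 7.49 log2 on flox arrays 1 to 4, against 7.94, 8.16, 7.93 and 7.96 on WT arrays 1 to 4. The difference was 0.32 (SE 0.25), or 0.60 with flox array 4 left out. For Itgb2, the chain shared by both receptors, it was 0.28 (SE 0.14), or 0.42 with that array left out.

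Of the initiators, 4 of 10 were higher on average. C1s1, the partner protease of C1r, measured 10.33, 9.78, 9.59 and 9.03 log2 on flox arrays 1 to 4, against 9.56, 9.75, 9.28 and 9.47 on WT arrays 1 to 4. Its order over the flox arrays was that of C1ra, and also of Serping1, C1qa, Cfb and Cfp. Its difference of 0.17 (SE 0.22) was -0.05 without flox array 1. C1s2, a second C1s gene whose probes may share signal with C1s1, differed by 0.26 (SE 0.14). The 4 terminal pathway genes tested were all lower on average, from -0.18 to -0.03. Of these, C8a, C8b and C8g lay near the filter (6.35 log2), at 6.31 to 6.93. C7, a part of the membrane attack complex, measured 9.24, 9.07, 8.98 and 8.73 log2 on flox arrays 1 to 4, against 9.26, 9.21, 8.96 and 9.32 on WT arrays 1 to 4. Its difference was -0.18 (SE 0.11), and -0.09 without flox array 4. Of the 3 convertase genes C2, C4a and C4b, 2 were higher, and of the 7 membrane regulators 4 were, with differences of -0.06 to 0.06. C4a and C4b are near-identical copies and may share signal.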

How the data were processed

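The members and the gene lists were chosen with earlier results of these data known. Per the submitters' processing notes, the deposited intensity values were made by the authors with RMA in Affymetrix Power Tools from Affymetrix Mouse Gene 1.0 ST arrays; their versions and the genome build are not given in the sources used. The values are linear probeset intensities, and their log2 was taken with no pseudocount. RMA compresses changes of dim rows. Rows with 1 gene symbol in the platform annotation were named (21425 of 24922), those with a mean below the 25th percentile of all rows (log2 6.35) were left out, and the brightest row per gene was kept, 15007 genes in all. The comparison of groups used limma 3.58.1 (R 4.3.3) with group as the only term, with Benjamini-Hochberg adjustment over all genes and a threshold of 0.05. The fit was run on simulated data with independent noise and the same spread in both groups. These arrays differ from that, since members ran together and flox SDs were often larger, so the run does not measure power here. Exact permutation tests used all 70 assignments, which cannot give a p below 0.0286, or all pairings of 8 arrays.

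Genes named were the 8 members, other complement genes with an unadjusted p under 0.05 or among the 6 largest differences, and the 5 most alike genes per profile. The stromal mean was planned with C3 and computed without it. Alternatives changed the filter, the scaling, the offset, the row rule, the prior, blocks, covariates and each array in turn. Sequences are from RefSeq (GRCm38.p6). For arrays, their number limits the precision.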

Additional observations from a re-analysis of the deposited data

Results flagged for a closer look

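Dixon's gap test, which flags about 1 in 20 groups of 4 by chance, marked 4 of 76 groups of values screened, where 3.8 would be marked by chance. All 4 were in ST2 WT. In Cd93, WT array 4 (11.10 log2) stood apart from the other WT arrays (10.90 to 10.91), with a gap of 0.929 of the range. In Itgam, WT array 2 (8.16) stood apart from the others (7.93 to 7.96), with 0.887. For the C1q mean minus the mean of C1ra and Serping1, WT array 3 (0.11) stood apart from the others (-0.11 to -0.08), with 0.879, and with Cfb added the ratio was 0.902. Flox array 4, lowest for all 8 members, was not marked for any of them.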

How the results depend on the processing

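The 8 members were refitted under each alternative, and no refit passed the threshold. With the row that names C1ra and C1rb together, 153 values were set beside the main fit. That joint row had no limma fit and no adjusted p (exact permutation p = 0.543). In 48 of the 153 (filter, row rule, prior and blocks) the difference is fixed by construction. Of the other 105, 96 kept the direction and 9 turned it. Among the 96 were the joint row and C1qa at 3.2e-04 with the macrophage mean as a covariate. The 9 that turned were the fits with the macrophage mean as a covariate for C1qc (-0.0090), C1ra (-0.10), Cfb (-0.16) and Serping1 (-0.18), those without flox array 1 for C1ra (-0.014), Cfb (-0.079) and Serping1 (-0.13), and those of Serping1 without flox array 2 or WT array 3 (-0.02 in both). The cause was not tested. Without each array in turn, the difference ran from 0.06 to 0.37 for C1qa, 0.08 to 0.37 for C1qb, 0.08 to 0.34 for C1qc, -0.014 to 0.38 for C1ra, 0.03 to 0.38 for C3ar1, -0.079 to 0.53 for Cfb, 0.16 to 0.47 for Cfp and -0.13 to 0.24 for Serping1. Over these fits the C1q mean minus that of C1ra and Serping1 differed by 0.05 to 0.16, and 16 to 20 of the other complement genes were higher.

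Genes past the threshold numbered 0 over all arrays (569 at an unadjusted p under 0.05), and 0 to 2 without each array, with 2 (3012) without flox array 4. The sample number as a replicate block left the count at 0 (694) and no member passed. Same-numbered samples correlated at -0.0017 to 0.35 in their deviations, and 1 of 4 flox samples correlated best with its own number, so the numbers are not taken as pairs. A split of numbers 1-2 against 3-4, known from an earlier look at the data, gave 0 calls as a block. Without the filter 22 of 43 other complement genes were higher (8718 of all 19752 genes). With the filter at the 50th percentile 12 of 15 were (5757 of all 10031).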
